A study of Mus musculus with 6 samples.

Results

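Mitochondria in skeletal muscle fuse, divide and fold their inner membrane, and 9 genes of this machinery were followed in mouse gastrocnemius muscle: *Mfn1*, *Mfn2*, *Opa1*, *Dnm1l*, *Fis1*, *Mff*, *Immt*, *Oma1* and *Yme1l1*. They were taken by name from the 24532 genes of the expression table. All 9 were expressed well enough to be among the 13801 genes tested, with 1116 to 48841 counts per gene and library. RNA-seq libraries came from 3 *Sirt6* flox/flox mice, labelled WT, and from 3 mice that also carried *Myl1-Cre*, labelled *Sirt6* KO. All were given as C57BL/6 males of 20 weeks, with 1 library per mouse, while the reporting summary names a *Sirt6* flox line of mixed background. Both groups therefore carry the floxed *Sirt6* alleles, and the label *Sirt6* KO adds the Cre. The *Myl1* locus that drives this Cre is used mainly by fast fibres, so slow fibres and the other cells of the muscle are expected to keep the gene. The comparison asks how muscle transcripts differ when the deacetylase Sirt6 is removed from fibres.

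Outer mitochondrial membranes are joined by the mitofusins Mfn1 and Mfn2, and inner membranes by the dynamin-related GTPase Opa1. Opa1 also keeps cristae narrow, and it is cut by 2 inner membrane proteases, Oma1 and Yme1l1, which shift the balance of its long and short forms. Division needs Drp1, the GTPase encoded by *Dnm1l*, which is recruited from the cytosol by outer membrane adaptors such as Mff, while Fis1 is a tail-anchored outer membrane protein linked to division and to mitochondrial turnover. *Immt* encodes mitofilin (Mic60), the core of the MICOS complex that holds crista junctions open. Fibres of different types differ in mitochondrial content and in the shape of the mitochondrial network.

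*Sirt6* itself did not follow the labels. Its level, in CPM on TMM-adjusted library totals (normalized CPM), was 2.77, 2.23 and 2.88 in WT replicates 1, 2 and 3, and 7.81, 7.44 and 6.68 in replicates 1, 2 and 3 of the *Sirt6* KO label. This is a log2 fold change of 1.48 ± 0.17 (SE), higher under the *Sirt6* KO label, with an adjusted p of 0.0113 in edgeR (0.0606 and 0.0650 without *Sirt6* KO-labelled replicate 1 or 3). Counts per gene do not separate the floxed exons from the rest of the transcript. The groups are therefore named by their labels, and every direction below is that of the label.

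The libraries held 44845763 to 63016899 counts. Fast muscle markers were abundant in all 6 (summed level of 7 genes 129491 to 214240 normalized CPM), as the tissue label says. The libraries also split in a way the groups do not give. *Hbb-bt*, a beta-globin gene, had no count in WT replicate 3 and in replicates 1 and 3 of the *Sirt6* KO label, and 1908 to 2766 counts in the other 3. The summed level of 5 erythroid markers, *Hbb-bt* among them, was 297, 291 and 46.6 normalized CPM in WT. Under the *Sirt6* KO label it was 110, 181 and 80.2, so libraries without *Hbb-bt* counts still held other erythroid RNA. Why *Hbb-bt* had no count there was not tested. The summed level of 7 slow muscle markers was 3570, 2944 and 132 normalized CPM in WT, and 359, 2099 and 500 under the *Sirt6* KO label, and 0 of the 7 passed the test (edgeR and DESeq2; 0 at an unadjusted p under 0.05). In lists of 5 markers each for erythroid, adipocyte, Schwann, macrophage, fibroblast and endothelial cells, 1 Schwann cell gene was lower and no other gene passed. All 5 adipocyte genes lay above 0 and all 5 erythroid genes below 0. With the globin split as a covariate 3 adipocyte genes were called higher and 1 erythroid gene lower. In that fit 1322 of all 13801 genes tested were called lower and 1182 higher. The split was drawn from *Hbb-bt*, itself an erythroid marker, so the erythroid call is not independent of it. The part of other cell types in the results was not tested beyond the values within the globin split given below. WT replicate 3 held the least slow muscle RNA of all 6 libraries. Every library without *Hbb-bt* counts held less slow muscle RNA than every library with them. The globin split is therefore also a split in slow muscle RNA, and these cannot be told apart. In bulk muscle, fewer fibres of a type and less RNA per fibre cannot be told apart.

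Of the 9 genes, 2 were lower and 1 was higher under the *Sirt6* KO label (edgeR's quasi-likelihood test, adjusted p under 0.05 by Benjamini-Hochberg over all genes tested). *Dnm1l* fell by 31.4%, *Yme1l1* fell by 26.5%, and *Fis1* rose to 1.32-fold of WT. Over all genes tested, 8.39% were called lower and 7.85% higher, 16.2% in either direction. The groups did not overlap for 4 genes that were lower (*Mfn1*, *Dnm1l*, *Oma1*, *Yme1l1*) and 1 that was higher (*Fis1*), against 19.6% and 20.3% of all genes tested and 40% in either direction. The median log2 difference over the 9 genes was -0.21, against -0.02 over all genes tested (-0.05 and -0.01 with the GC correction described next). For a single gene, 3 libraries against 3 allow no two-sided exact permutation p under 0.1.

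These calls changed with a correction for GC content. Across all genes tested, the log2 fold change was higher in transcripts of higher GC content, from a median of -0.35 in the decile of genes with the lowest GC content to 0.25 in the decile with the highest. *Dnm1l* and *Yme1l1* lie in the lowest decile and *Fis1* in the eighth. With each library's GC trend removed, 0 of the 9 genes were lower at an adjusted p under 0.05 in edgeR, 2 at an unadjusted p under 0.05, *Fis1* was no longer called, and *Mff* was called higher. In that fit 3.52% of all genes were called lower and 3.41% higher. Without the GC correction, DESeq2 called 3 of the 9 lower (with *Mfn1*) and 1 higher, against 13% and 12.5% of all genes.

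**Figure D1:**
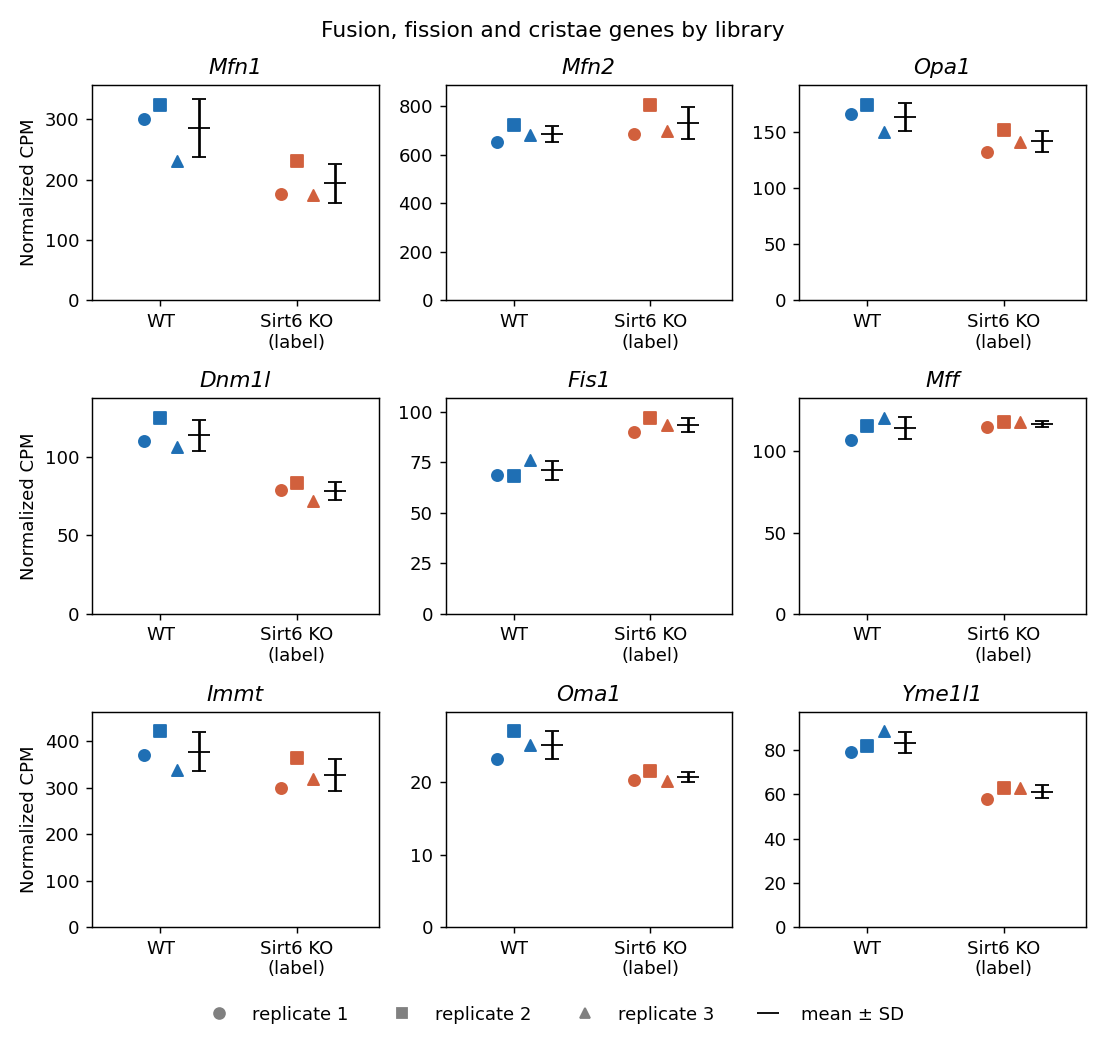
Normalized CPM (linear axes from 0) of each of the 9 genes in the 3 WT libraries (blue) and the 3 *Sirt6* KO-labelled libraries (orange), with marker shape giving the replicate and black bars the mean ± SD. *Dnm1l* and *Yme1l1* lie lower and *Fis1* higher in every *Sirt6* KO-labelled library, *Mfn1* comes close to overlapping, and *Mfn2* and *Mff* overlap.

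The 250 bases upstream of the RefSeq start are shown for the gene with the smallest p, *Dnm1l*, and for the one gene that was higher, *Fis1*. They are on GRCm38.p6, which is the assembly of the table's mm10, and read 5′ to 3′ along the gene. *Dnm1l* is on the minus strand and its stretch is chr16:16359032-16359281. That of *Fis1*, on the plus strand, is chr5:136961827-136962076. It lies inside the RefSeq span of *Fis1* (chr5:136953275-136966234), so it precedes the start taken here and not the whole gene. RefSeq gives each gene 2 starts, and the one nearest to GENCODE's principal transcripts was taken. Capitals mark the letters GGGCGG, the GC box bound by Sp factors, or its reverse complement.
Dnm1l: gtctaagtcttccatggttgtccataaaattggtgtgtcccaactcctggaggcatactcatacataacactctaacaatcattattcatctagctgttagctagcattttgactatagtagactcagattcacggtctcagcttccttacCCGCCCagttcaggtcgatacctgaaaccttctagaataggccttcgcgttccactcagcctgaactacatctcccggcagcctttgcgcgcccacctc
Fis1: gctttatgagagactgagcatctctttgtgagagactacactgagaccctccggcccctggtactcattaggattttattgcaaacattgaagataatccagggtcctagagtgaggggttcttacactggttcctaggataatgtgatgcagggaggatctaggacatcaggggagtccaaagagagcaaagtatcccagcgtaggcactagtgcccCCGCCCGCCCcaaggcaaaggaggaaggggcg
The *Dnm1l* stretch holds 1 such match and the *Fis1* stretch 2 that overlap each other.

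Promoter letters were compared over the 9 genes with both strands read, in windows from 250 bases before to 50 after each RefSeq start. The shares are over all genes with a window, expressed or not, while the 9 genes were all expressed. Shares among expressed genes alone were not tested. GGGCGG stood in at least 1 window of 8 of the 9 genes (all but *Immt*), against 38.2% of all genes with a window. CCGGAAG, the core bound by ETS factors such as GABP, stood in 5 (*Mfn1*, *Dnm1l*, *Fis1*, *Immt*, *Yme1l1*), against 9.93%. GCGCANGCG, bound by NRF1, stood in 3 (*Opa1*, *Immt*, *Oma1*), against 7.03%. The cyclic AMP response element bound by CREB, TGACGTCA, stood in 0 of the 9 and in 2.03% of all genes, and its part TGACG stood in 5 (*Mfn1*, *Mfn2*, *Mff*, *Oma1*, *Yme1l1*) against 23% (a full element holds 2 overlapping copies of that part). TNAAGGTCA, bound by estrogen-related receptors, and the E-box CACGTG stood in 0 of the 9, against 1.43% and 8.09%, and AANATGGCG, bound by YY1, in *Mfn1* alone, against 2.76%. The CCGGAAG letters were thus shared by genes that were lower, by one that was higher and by others that passed in neither direction.

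*Mfn1* (NCBI gene 67414, chr3:32529443-32579225), which tethers and joins outer membranes, had 300, 324 and 231 normalized CPM in WT replicates 1, 2 and 3, and 176, 231 and 175 in replicates 1, 2 and 3 under the *Sirt6* KO label. The lowest WT library (replicate 3, 231.3) lay just above the highest *Sirt6* KO-labelled library (replicate 2, 231.2), so the separation of the groups is bare. The means were 285 ± 48.3 and 194 ± 32.3 (SD, n = 3 each), a log2 difference of -0.56 ± 0.18 (SE) that missed the threshold (adjusted p = 0.0714 in edgeR), and DESeq2 called it (adjusted p = 0.0199). This was the widest difference of the 9 genes, and also the gene with the widest spread in WT (coefficient of variation 16.9%). *Mfn1* varied with the globin split, which is also the split in slow muscle RNA. With the split as a covariate the difference was -0.42 ± 0.10 (adjusted p = 0.0312 in edgeR). Within the sides of the split the difference was -0.43 (WT 1 and 2 against the *Sirt6* KO-labelled library 2) and -0.40 (WT 3 against the other *Sirt6* KO-labelled libraries). After removal of the GC trend it was -0.44 ± 0.18 (adjusted p = 0.150).

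*Mfn2* (NCBI gene 170731, chr4:147873586-147904909), the other mitofusin, which also links mitochondria to the sarcoplasmic reticulum, had 654, 721 and 679 normalized CPM in WT and 686, 806 and 696 under the *Sirt6* KO label. The groups overlapped. The log2 difference was 0.09 ± 0.13 (adjusted p = 0.653 in edgeR), with a 95% interval of 0.861 to 1.32 for the fold change, so a change of up to about this size in either direction was not resolved. With the GC trend removed the value was -0.05, and the sign of so small a difference was not stable.

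*Opa1* (NCBI gene 74143, chr16:29579281-29663127), the inner membrane fusion GTPase, had 166, 175 and 150 normalized CPM in WT and 133, 152 and 141 under the *Sirt6* KO label. Only the *Sirt6* KO-labelled library 2 reached into the WT range. Its log2 difference of -0.21 ± 0.11 did not pass (adjusted p = 0.236 in edgeR, 95% interval of the fold change 0.720 to 1.04). *Opa1* lies in the second lowest decile of GC content, whose median was -0.26, and with the trend removed its value was -0.00 ± 0.11.

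Of the proteases that cut Opa1, *Yme1l1* was lower and *Oma1* missed the threshold. *Yme1l1* (NCBI gene 27377, chr2:23155442-23199260), the ATP-dependent i-AAA protease of the inner membrane, had 79.34, 81.98 and 88.60 normalized CPM in WT and 57.95, 63.04 and 62.75 under the *Sirt6* KO label. Every *Sirt6* KO-labelled library was below every WT library, and the spread was small on both sides (83.3 ± 4.77 against 61.2 ± 2.86, SD, n = 3 each). It fell by 0.44 ± 0.10 on the log2 scale (adjusted p = 0.0288 in edgeR, 95% interval of the fold change 0.626 to 0.864). The difference was -0.36 and -0.55 within the sides of the globin split. With the GC trend removed it was -0.07 ± 0.10 (adjusted p = 0.665), and over the 6 fits that leave out 1 library its adjusted p lay between 0.0181 (without WT replicate 3) and 0.115, with 1 of 6 under 0.05.

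*Oma1* (NCBI gene 67013, chr4:103311875-103371869), the stress-activated metalloprotease, was the least abundant of the 9 genes, with 23.2, 27.1 and 25.2 normalized CPM in WT and 20.4, 21.5 and 20.3 under the *Sirt6* KO label. The groups did not overlap, but the log2 difference of -0.28 ± 0.10 missed the threshold (adjusted p = 0.104 in edgeR, 95% interval of the fold change 0.695 to 0.975). *Oma1* lies near the middle of the GC range (48.5%), and its difference hardly moved with the trend removed (-0.26 ± 0.11, adjusted p = 0.155).

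*Dnm1l* (NCBI gene 74006, chr16:16312228-16359038), the division GTPase whose upstream bases are printed above, had 110, 125 and 106 normalized CPM in WT and 79.0, 83.2 and 71.9 under the *Sirt6* KO label. The gap between the groups (83.2 to 106) was wider than the range within either. It fell by 0.54 ± 0.11 on the log2 scale (adjusted p = 0.0244 in edgeR, 95% interval of the fold change 0.570 to 0.826), the smallest p of the 9 genes. Within the sides of the globin split the difference was -0.50 and -0.49. With the GC trend removed it was -0.25 ± 0.12 (adjusted p = 0.209), and when 1 library was left out in turn its adjusted p lay between 0.0110 (without WT replicate 3) and 0.117, with 1 of 6 fits under 0.05. In the GENCODE annotation an opposite-strand gene overlaps 4.67% of its exon bases, and 2.59% of the 100-base words of its longest transcript occur in other genes' transcripts. Whether reads were counted by strand is not given in the sources used here.

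Of the outer membrane proteins of division, *Fis1* was higher and *Mff* passed in neither direction. *Fis1* (NCBI gene 66437, chr5:136953275-136966234) had 68.9, 68.0 and 76.4 normalized CPM in WT and 90.0, 97.0 and 93.5 under the *Sirt6* KO label. Each *Sirt6* KO-labelled library was above each WT library. The log2 difference was 0.40 ± 0.10 (adjusted p = 0.0391 in edgeR, 95% interval of the fold change 1.12 to 1.55), and it was 0.50 and 0.27 within the sides of the globin split. *Fis1* has the highest GC content of the 9 genes (54.4%), and with the trend removed its difference was 0.23 ± 0.10 (adjusted p = 0.184). In the 6 fits that leave out a library its adjusted p lay between 0.0118 (without WT replicate 3) and 0.142, with 1 of 6 fits under 0.05.

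*Mff* (NCBI gene 75734, chr1:82724890-82752390), the main adaptor that brings Drp1 to the outer membrane, had 107, 115 and 121 normalized CPM in WT and 115, 118 and 118 under the *Sirt6* KO label. All 3 *Sirt6* KO-labelled libraries lay inside the WT range. The log2 difference was 0.03 ± 0.10 (adjusted p = 0.841 in edgeR, 95% interval of the fold change 0.870 to 1.20). The GC content of its longest transcript is 37.3%, the lowest of the 9 genes, and correcting on that value gave 0.42 ± 0.10 (adjusted p = 0.0496). Over the RefSeq transcripts that the table lists for *Mff* the GC content is 45.3%, and correcting on that gave 0.21 ± 0.10 (adjusted p = 0.230), so for this gene the corrected value turns on which transcripts are taken. An annotated opposite-strand gene overlaps 2% of the exon bases of *Mff*.

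*Immt* (NCBI gene 76614, chr6:71831091-71875266), which encodes mitofilin, had 371, 422 and 339 normalized CPM in WT and 299, 364 and 318 under the *Sirt6* KO label. The *Sirt6* KO-labelled library 2 lay above WT replicate 3, so the groups overlapped. The log2 difference of -0.21 ± 0.14 did not pass (adjusted p = 0.328 in edgeR, 95% interval of the fold change 0.691 to 1.09). With the trend removed it was 0.12 ± 0.14 on the GC content of the longest transcript (39.8%), and -0.18 ± 0.14 on that of the listed transcripts (48.9%). An opposite-strand gene overlaps 1.63% of its exon bases.

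**Figure D2:**
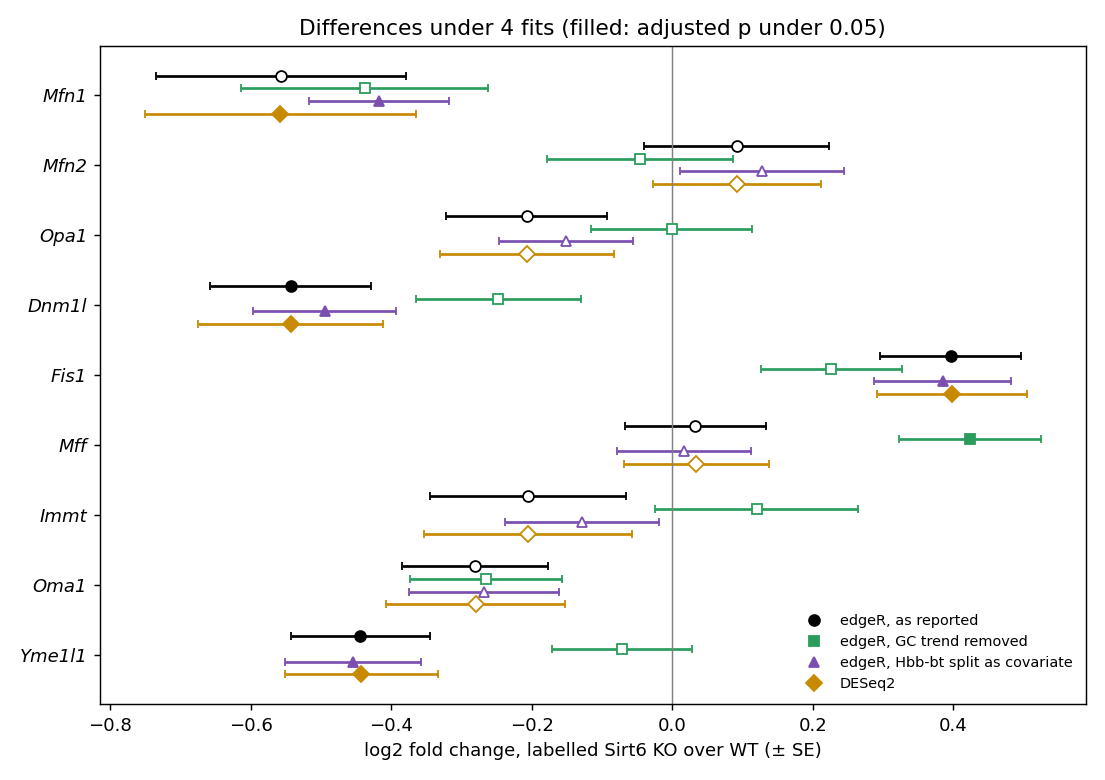
log2 fold change (labelled *Sirt6* KO over WT) with its SE for the 9 genes in 4 fits, with filled symbols for an adjusted p under 0.05. *Dnm1l*, *Fis1* and *Yme1l1* are called in 3 of the 4 fits and lie nearer to 0 with the GC trend removed, where the one call is *Mff*.

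The 9 differences were set against the GC content of the transcripts. Pearson's r between the log2 difference and GC content was 0.55 over the 9 genes on the longest transcripts and 0.79 on the listed transcripts, given as a description, since genes of the same 6 libraries are not independent points. Spearman's rho on the longest transcripts was 0.3 over the 9 genes, close to 0.33 over the 13715 tested genes with a known GC content. *Mfn1* and *Oma1* lay below the median of their own GC decile (-0.16 and -0.03), while *Opa1* and *Mfn2* lay close to theirs (-0.26 and 0.11).

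**Figure D3:**
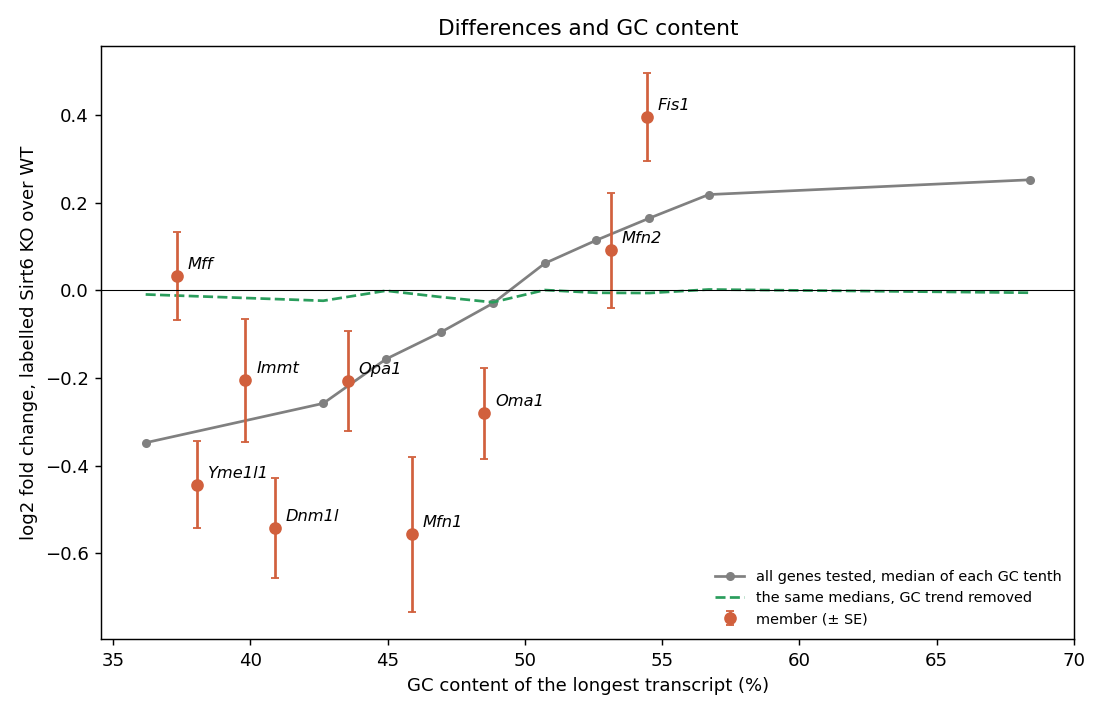
log2 fold change (labelled *Sirt6* KO over WT) against the GC content of the longest transcript. Grey points give the median of all tested genes in each decile of GC content, from -0.35 to 0.25, the dashed line the same medians with the trend removed, and orange points the 9 genes with their SE. *Mfn1*, *Dnm1l* and *Oma1* lie below the median of their own decile and *Fis1* and *Mff* above it by more than their SE, and *Opa1*, *Mfn2*, *Yme1l1* and *Immt* lie within about their SE of it.

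Levels of different genes were compared on the TPM scale, which divides by transcript length. In WT the order of the mean TPM was *Mfn2* (330 ± 36.9), *Immt* (327 ± 61.8), *Fis1* (197 ± 11.6), *Mfn1* (140 ± 35.7), *Mff* (134 ± 8.47), *Dnm1l* (62.1 ± 10.04), *Opa1* (60.5 ± 10.3), *Yme1l1* (39.8 ± 2.19) and *Oma1* (29.6 ± 3.35; SD, n = 3 each). The ranges of *Mfn2* and *Immt*, of *Mfn1* and *Mff*, and of *Dnm1l* and *Opa1* overlapped, so the order within these pairs is not resolved. Transcripts of *Fis1* and *Mff* were thus more abundant than those of *Dnm1l*, and those of *Mfn2* more than those of *Mfn1*.

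In the *Sirt6* KO-labelled libraries the order was *Mfn2* (324.5 ± 25.5 TPM), *Immt* (261 ± 21.8), *Fis1* (239 ± 4.88), *Mff* (127 ± 1.66), *Mfn1* (86.5 ± 13.3), *Opa1* (48.1 ± 2.29), *Dnm1l* (39.1 ± 3.33), *Yme1l1* (27.1 ± 0.460) and *Oma1* (22.5 ± 0.819; SD, n = 3 each). No neighbours overlapped there. *Mff* stood above *Mfn1*, and *Opa1* above *Dnm1l*, both pairs in the reverse order of the WT means. On this scale the levels of *Mfn1* did overlap between the groups (98.6 TPM in WT replicate 3, 102 TPM in the *Sirt6* KO-labelled library 2).

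**Figure D4:**
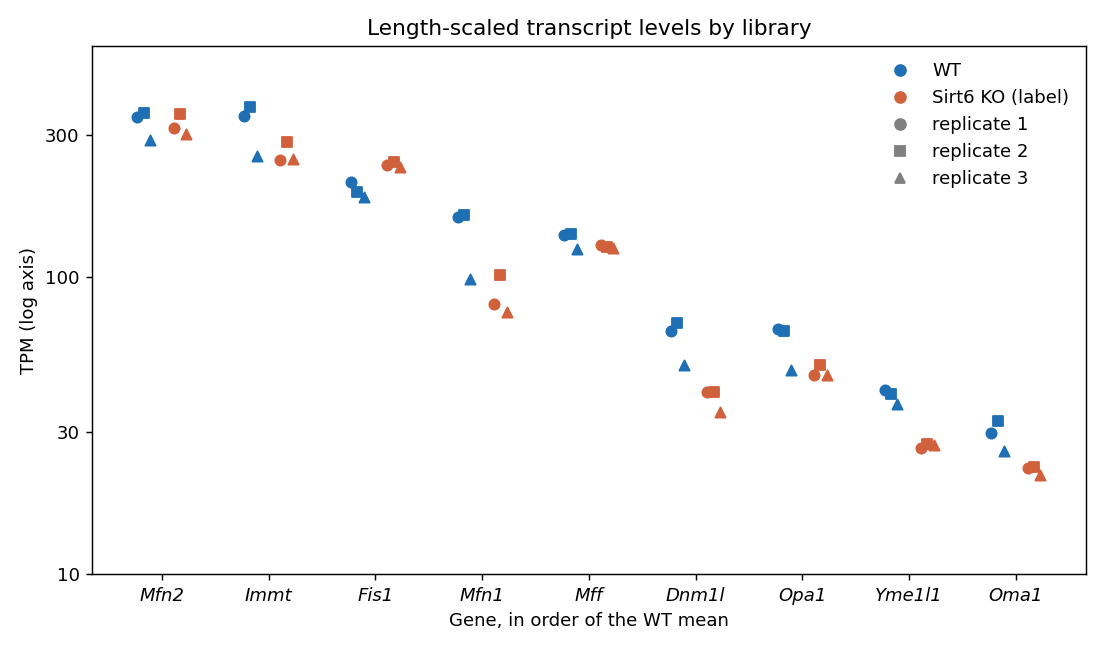
TPM (log axis) of the 9 genes in each library, ordered by the WT mean, in blue for WT and orange for the *Sirt6* KO-labelled libraries, with marker shape giving the replicate. *Mfn2* and *Immt* are the most abundant and *Oma1* the least in both groups, and on this scale WT replicate 3 is the lowest WT library for all 9 genes, while in normalized CPM it is the highest for *Fis1*, *Mff* and *Yme1l1*.

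Ratios within a library compare genes without a scale between libraries. *Mfn2* over *Mfn1*, both in TPM, was 2.17, 2.22 and 2.93 in WT and 3.89, 3.47 and 3.97 under the *Sirt6* KO label. *Dnm1l* over *Fis1* was 0.314, 0.360 and 0.272 in WT and 0.172, 0.168 and 0.150 under the *Sirt6* KO label. *Dnm1l* over *Mff* was 0.460 ± 0.0476 and 0.308 ± 0.0239 (SD, n = 3 each). These ratios did not overlap between the groups. For *Dnm1l* over *Fis1* this follows from the levels above, with *Dnm1l* lower and *Fis1* higher in every *Sirt6* KO-labelled library. How often ratios of other gene pairs do not overlap was not tested, so the ratios add no support to the calls. *Opa1* over *Dnm1l* was higher in each *Sirt6* KO-labelled library (1.24 ± 0.0959) than in each WT library (0.974 ± 0.0387), while *Yme1l1* over *Oma1*, the proteases that cut Opa1, overlapped (1.36 ± 0.106 in WT, 1.21 ± 0.0527 under the *Sirt6* KO label). For each ratio whose groups did not overlap the two-sided exact permutation p is 0.1, the smallest that 3 against 3 allows. The genes of the *Dnm1l* and *Fis1* ratio also differ in GC content (40.9% and 54.4%), and the part of the GC trend in the ratios was not tested.

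Other genes of the pathway were read from 9 lists of 87 genes, of which 83 were tested (not *Pld6*, *Mtfr2*, *Ppp2r2b* and *Cdk1*). Of these 83, 9 were lower and 4 higher (edgeR, adjusted p under 0.05), where 8.39% and 7.85% of all genes were, and their median log2 difference was -0.09, against -0.02 over all genes tested. After removal of the GC trend 3 were lower (*Apoo*, *Hspd1* and *Ppargc1a*) and 0 higher in edgeR, where 6 were higher at an unadjusted p under 0.05. DESeq2 called 16 lower and 4 higher, against 13% and 12.5% of all genes.

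Other fusion genes passed in neither direction: 0 of 4 in edgeR and in DESeq2, and 0 at an unadjusted p under 0.05 in edgeR. The smallest p among them was that of *Fam73a* (Miga1, an outer membrane protein that aids fusion), with a log2 difference of 0.20 ± 0.11 (adjusted p = 0.245), or 0.43 with the GC trend removed (adjusted p = 0.0636). In that fit 1 of the 4 was lower and 1 higher at an unadjusted p under 0.05. Of 11 other division genes, 1 was lower and 0 were higher, where 8.39% and 7.85% of all genes were. The lower gene was *Mtfr1*, a mitochondrial fission regulator, which fell by 0.68 ± 0.18 on the log2 scale (47.4 ± 8.82 to 29.6 ± 4.61 normalized CPM, adjusted p = 0.0425). Of 8 genes whose products modify Drp1 or act on its targets, 1 was higher, where 7.85% of all genes were. The higher gene was *Usp30*, the outer membrane deubiquitinase, by 0.53 ± 0.14 (8.89 ± 1.37 to 12.8 ± 0.714 normalized CPM, adjusted p = 0.0476). Neither call held with the GC trend removed, where *Mtfr1* was at -0.49 (adjusted p = 0.117) and *Usp30* at 0.35 (adjusted p = 0.154), so most of each difference remained.

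Of 11 genes of MICOS and its outer membrane partners, 3 were lower and 0 higher, where 8.39% of all genes were lower. The median log2 difference over the list was -0.13, and -0.26 with the GC trend removed. These 3 are subunits of the complex that mitofilin organizes. *Apoo* (Mic26) had 111, 134 and 126 normalized CPM in WT and 68.4, 77.6 and 80.3 under the *Sirt6* KO label. The groups were far apart, and *Apoo* fell by 0.71 ± 0.12 on the log2 scale (adjusted p = 0.0161). *Apool* (Mic27) fell by 0.63 ± 0.14 (42.8 ± 5.88 to 27.7 ± 3.52 normalized CPM, adjusted p = 0.0309). *Chchd3* (Mic19) fell by 0.41 ± 0.11 (346 ± 19.7 to 260 ± 9.18 normalized CPM, adjusted p = 0.0470). *Apoo* was still called with the GC trend removed (-0.57, adjusted p = 0.0409), but not on the GC content of the listed transcripts (-0.50, adjusted p = 0.0549) or with the replicate block as well (-0.57, adjusted p = 0.0510). *Chchd3* kept most of its difference with the trend removed but not its call (-0.37, adjusted p = 0.0839), while *Apool* was at -0.32 (adjusted p = 0.202). The TPM ratio of *Immt* to *Apoo* was 1.19 ± 0.132 in WT and 1.66 ± 0.158 under the *Sirt6* KO label, with no overlap between the groups. That of *Immt* to *Chchd3* was 0.612 ± 0.0469 and 0.710 ± 0.04997, again without overlap.

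Of 13 other inner membrane and matrix proteases, their partners and the prohibitins, 3 were higher, where 7.85% of all genes were, and 0 lower in edgeR (2 at an unadjusted p under 0.05, and 2 called by DESeq2). The lower gene nearest to the threshold, *Immp1l*, a subunit of the inner membrane peptidase, was at -0.57 ± 0.16 (adjusted p = 0.0542 in edgeR, named after its value was seen). *Clpp*, the matrix protease subunit, rose by 0.56 ± 0.11 on the log2 scale (23.6 ± 1.66 to 34.9 ± 3.18 normalized CPM, adjusted p = 0.0222). *Spg7* (paraplegin, a subunit of the m-AAA protease) rose by 0.44 ± 0.12 (90.9 ± 10.8 to 123 ± 2.63 normalized CPM, adjusted p = 0.0462), and *Lonp1*, the matrix Lon protease, by 0.38 ± 0.10 (111 ± 0.629 to 145 ± 10.2 normalized CPM, adjusted p = 0.0465). These 3 moved opposite to *Yme1l1*. Their transcripts have a GC content of 54.2% to 57.8%, against 38.05% for *Yme1l1*, and none of the 4 was called with the trend removed (edgeR adjusted p of 0.109, 0.177, 0.319 and 0.665 for *Clpp*, *Spg7*, *Lonp1* and *Yme1l1*).

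Genes of cardiolipin, the inner membrane lipid that Opa1 and MICOS bind, passed in neither direction: 0 of 9 in edgeR and in DESeq2, and 0 at an unadjusted p under 0.05 in edgeR. Their log2 differences lay between -0.13 and 0.18, the upper end being *Prelid1*, a carrier of phosphatidic acid (0.18 ± 0.11, adjusted p = 0.280). Of 5 genes of mitochondrial transport along microtubules, *Rhot1* (Miro1) alone passed, where 16.2% of all genes passed in either direction. *Rhot1* fell by 0.43 ± 0.09 (60.7 ± 3.43 to 44.99 ± 0.713 normalized CPM, adjusted p = 0.0265). It was not called with the GC trend removed (-0.23, adjusted p = 0.158).

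Genes commonly read as measures of mitochondrial mass were lower in 2 of 12 and higher in 0. Of the 12 differences 10 were below 0, and their median was -0.26. Of all genes tested, 8.39% were lower and 7.85% higher, 7121 of 13801 differences were below 0, and the median was -0.02. *Hspd1*, the matrix chaperonin Hsp60, had 367, 305 and 260 normalized CPM in WT and 156, 179 and 161 under the *Sirt6* KO label. It fell by 0.91 ± 0.15 on the log2 scale (adjusted p = 0.0163), and with the GC trend removed the value was -0.83 (adjusted p = 0.0326, or 0.0508 with the replicate block as well). *Vdac2*, an outer membrane channel, fell by 0.43 ± 0.12 (adjusted p = 0.0494) and kept most of its difference but not its call with the trend removed (-0.36, adjusted p = 0.104). After removal of the GC trend the median of these 12 genes was -0.17. That of the 9 fusion, fission and cristae genes was -0.05, and that of all genes tested -0.01.

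Among 10 transcriptional regulators of mitochondrial genes, 2 were lower and 0 higher, where 8.39% and 7.85% of all genes were. *Ppargc1a*, the coactivator of mitochondrial biogenesis and a driver of *Mfn2* transcription, had 764, 1703 and 515 normalized CPM in WT and 45.6, 170 and 92.2 under the *Sirt6* KO label. It fell by 3.28 ± 0.61 on the log2 scale (adjusted p = 0.0186) and was still called with the GC trend removed (-3.01, adjusted p = 0.0359). *Gabpa*, the DNA-binding subunit of GABP, fell by 0.35 ± 0.10 (adjusted p = 0.0493), but its value with the trend removed was -0.07 (adjusted p = 0.663). In the 6 fits that leave out a library, *Apoo* and *Hspd1* were not called without WT replicate 2 or without *Sirt6* KO-labelled replicate 1 or 3, and *Ppargc1a* not without WT replicate 1 either. The other 10 called genes of the lists were called in 1 or 2 of the 6 fits.

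**Figure D5:**
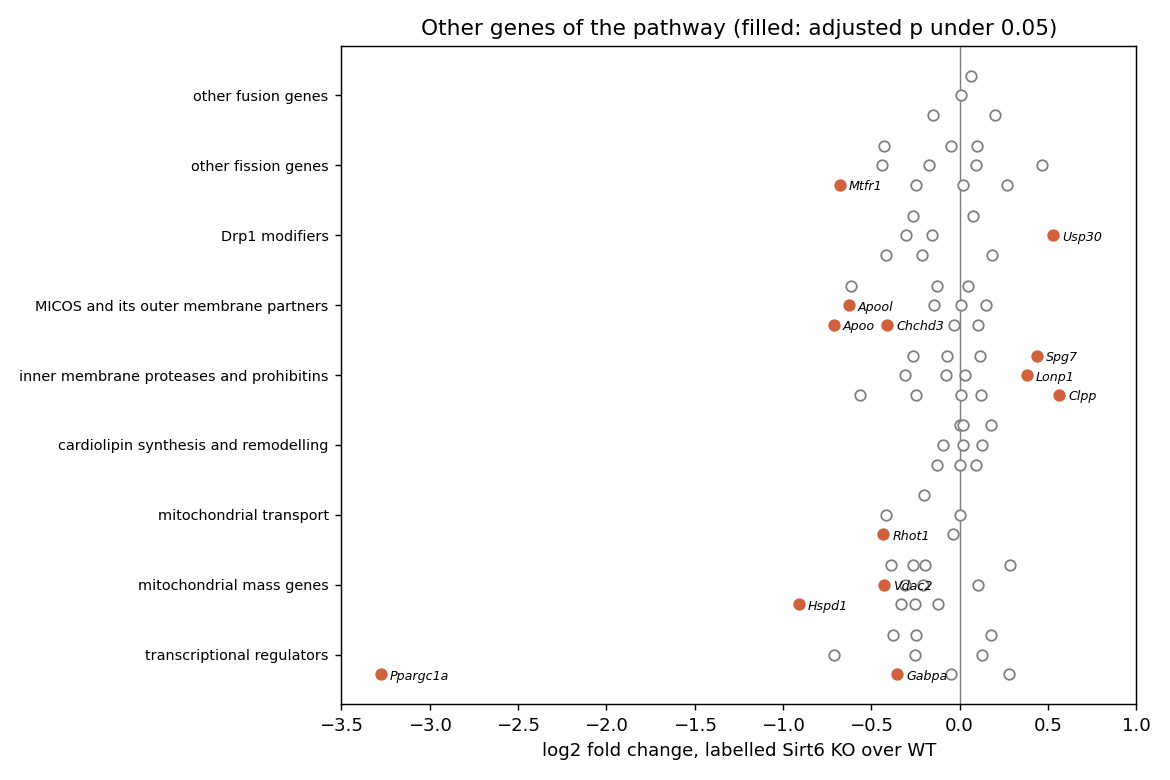
log2 fold change (labelled *Sirt6* KO over WT) of the 83 tested genes of the 9 pathway lists, 1 point per gene in 1 band per list, with vertical stagger only to separate points. Filled points have an adjusted p under 0.05 in edgeR and are named, 9 lower and 4 higher, and *Ppargc1a* is the farthest from 0 at -3.28.

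The genes whose levels ran most alike across the 6 libraries were taken for *Dnm1l*, the member with the smallest p, and for *Mff*, that with the largest. For *Dnm1l* they were *Trp53inp2*, *Itgav*, *Sh3glb1*, *Chac2* and *Commd1*, with Pearson's r of log2 normalized CPM from 0.999 to 0.995 over 6 libraries that also share the group difference. *Trp53inp2*, an autophagy regulator, had 618, 732 and 571 normalized CPM in WT and 395, 422 and 353 under the *Sirt6* KO label, and *Sh3glb1* encodes endophilin B1, a membrane-bending protein found at mitochondria. For *Mff* they were *Srp14*, *Ube2v1*, *Bfar*, *3110002H16Rik* and *Gm5801*, with r from 0.984 to 0.972. These were picked from 13801 genes over only 6 points, and no r is read as a relation.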

How the data were processed

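Gastrocnemius RNA of 3 WT and 3 labelled *Sirt6* KO mice was sequenced (paired-end, 100 bp). The read counts per gene, the FPKM values and the TPM values were deposited by the authors in 1 table on mm10. The counts are not normalized between libraries, the deposited FPKM values are scaled to length and depth, and the deposited TPM values to a fixed sum per library. The submitters' processing notes name HISAT2 2.1.0, Bowtie2 2.3.4.1 and StringTie 2.1.3b, while the reporting summary names STAR. The methods and the labels name different TruSeq kits, and the methods and the reporting summary different *Sirt6* flox lines. All per-sample columns were used.

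Counts were tested in R 4.3.3 with edgeR 4.0.16 (filterByExpr, TMM, quasi-likelihood test, Benjamini-Hochberg at 0.05 over 13801 genes), with the group as the one factor. The common biological coefficient of variation was 24.1%, and 1 count was worth 0.0165 to 0.0212 CPM. Intervals are at 95% from the standard error and the test's degrees of freedom. TPM served for comparing genes and FPKM for limma 3.58.1 (log2 of FPKM plus 1 or 0.1, quantile-normalized). Alternatives were DESeq2 1.42.0, its size factors, other filters, the replicate number as a block, a GC correction (lowess per library, span 0.3, on the longest GENCODE M21 transcript, known for 99.4% of genes tested) and leaving out each library. A covariate for the *Hbb-bt* split and GC content over the listed RefSeq transcripts were alternatives chosen after seeing the data. The scripts were tested on simulated data.

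Members and lists were chosen with earlier results of these data known. Named are the 9 genes, *Sirt6*, up to 3 called genes per direction of each wider list (otherwise the one with the smallest p), and the 5 genes most alike to the members with the smallest and the largest p. *Hbb-bt* was named after its values were seen. Coordinates and promoters are from RefSeq (GRCm38.p6), where all 9 genes had a promoter window among 32851.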

Additional observations from a re-analysis of the deposited data

How the results depend on the processing

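Of the 9 genes, 2 were lower and 1 higher in edgeR. With the GC trend removed 0 were lower and 1 was higher, which was *Mff* and no longer *Fis1*. With the trend removed on the listed transcripts 0 were lower and 0 higher (0 and 0 at an unadjusted p under 0.05 in edgeR). With the globin covariate and the trend removed 0 were lower and 1 was higher, again *Mff* (0.42, adjusted p = 0.0423 in edgeR). *Fis1* was lost without a filter on low counts (adjusted p = 0.0529), which left 0 higher (1 at an unadjusted p). Of the wider lists, 9 genes were lower and 4 higher as reported. DESeq2 gave 16 lower, no filter 5 lower and 1 higher, and limma on log2(FPKM + 1) without a filter 14 lower and 7 higher. Over the 17190 genes of these unfiltered fits, edgeR called 896 lower and 830 higher, and limma 1108 and 1373. The GC correction gave 3 lower and 0 higher, on the listed transcripts 2 and 0, and together with the globin covariate 6 and 0. Over all genes, 1158 were lower and 1084 higher as reported, 1801 and 1730 in DESeq2, 483 and 468 with the GC trend removed, 450 and 427 on the listed transcripts, and 677 and 637 with the globin covariate as well.

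The labels number the replicates of both groups 1 to 3. Deviations of same-numbered libraries correlated at -0.11, 0.26 and 0.16 in replicates 1, 2 and 3. Differently numbered libraries correlated at -0.34 (WT 3 with *Sirt6* KO-labelled 2) to 0.21 (WT 3 with *Sirt6* KO-labelled 1). The methods name no block, and the numbers were not taken as pairs. With the replicate block 3 of the 9 genes were lower and 0 higher (*Fis1* adjusted p = 0.0645, *Mfn1* 0.0499), and 6 of the wider lists were lower and 2 higher. Of all 13801 genes tested, 1018 were lower and 904 higher in that fit. With the block and the GC trend removed, 0 of the 9 were lower and 0 higher, 1 of the wider lists lower and 0 higher, and 328 of all genes lower and 247 higher.

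Leaving out each library in turn gave 0 to 3 of the 9 genes lower and 0 to 1 higher, 0 to 14 and 0 to 5 of the wider lists, and 2 to 2219 and 6 to 2363 of all genes. The high ends came without WT replicate 3, and the other 5 fits called 0 of the 9 (2 to 3 lower and 1 higher at an unadjusted p under 0.05). The low ends over all genes came without the library labelled *Sirt6* KO 1. The cause was not tested.

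Signs turned only in differences that did not pass as reported. With the GC trend removed, with the block as well, on the listed transcripts and with the globin covariate, *Mfn2* was at -0.0461, -0.0479, -0.0440 and -0.0125, and *Prelid1* at -0.0420, -0.0413, -0.0385 and -0.0228. *Immt* was at 0.120, 0.122 with the block and 0.203 with the covariate. *Opa1* was at 0.000125 with block and trend and 0.0542 with covariate and trend. *Mff* lay between -0.00191 (without WT replicate 1) and 0.0760 over the fits that leave out a library. DESeq2's size factors and the filter of at least 10 counts changed no call of the 9 genes. With 3 libraries a group, differences inside the printed intervals could not be resolved.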
